A study of Mus musculus with 157 samples.

Results

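The 10 mRNAs described here encode proteins of iron and polyamine handling, and several of them are known to be controlled during translation. They were taken by symbol from the 19600 genes of the count table: Fth1, Ftl1, Tfrc and Ireb2 for iron, and Odc1, Oaz1, Oaz2, Azin1, Amd1 and Sat1 for polyamines. Their symbols and not a measured threshold defined the set, which was drawn up with earlier results of these data known. All libraries came from splenic B cells of C57BL/6Babr mice, purified with an isolation kit and activated in culture with lipopolysaccharide (LPS) at 10 µg/ml. The mice were between 8 and 12 weeks of age, and the labels name no further genotype. The LPS group received LPS for 48 h and nothing else. The LPS+ET group also received etoposide at 20 µM for 4 h, a topoisomerase II poison that leaves DNA double-strand breaks. The LPS+ET+KU group had 47 h of LPS, then KU55933 at 10 µM for 1 h, an inhibitor of the DNA damage kinase ATM, and then the same etoposide treatment. Before lysis every group was exposed to cycloheximide (100 µg/ml, 3 min), which holds ribosomes on mRNA. Cytoplasmic extracts were separated on sucrose gradients, 4 gradients per treatment, and the 3′ ends of the mRNAs in fractions 4 to 16 were sequenced. Fractions 4 to 7 are called monosomes, 8 to 10 light polysomes and 11 to 16 heavy polysomes, as the labels do.

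Iron regulatory proteins, of which IRP2 is the product of Ireb2, bind hairpins called iron-responsive elements (IREs) when iron is scarce. Bound at the 5′ end of the ferritin mRNAs (Fth1, Ftl1) they keep ribosomes off, and bound in the 3′ UTR of Tfrc, the transferrin receptor through which activated lymphocytes take up iron, they protect the mRNA from decay. Polyamines are made by ornithine decarboxylase (Odc1) and S-adenosylmethionine decarboxylase (Amd1), whose mRNAs have open reading frames ahead of the coding sequence. Antizymes (Oaz1, Oaz2) send ornithine decarboxylase to the proteasome and need a polyamine-driven ribosomal frameshift to be made, antizyme inhibitor (Azin1) traps the antizymes, and Sat1 acetylates spermidine and spermine for breakdown and export.

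Candidate control elements are shown because the set was drawn up around such elements, although the searches below found none of them in Ireb2. Sequences were read from GENCODE M21 transcripts on GRCm38 and are written 5′ to 3′. In the IREs the capitals mark the 6-base loop. The Fth1 element lies in the 5′ UTR at chr19:9982732-9982760 (plus strand) and the Ftl1 element in the 5′ UTR at chr7:45459779-45459807 (minus strand). The Tfrc elements lie in the 3′ UTR on the plus strand, at chr16:32631219-32631247, chr16:32631598-32631626, chr16:32631663-32631691 and chr16:32631710-32631738.
Fth1 IRE: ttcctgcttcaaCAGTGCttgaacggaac
Ftl1 IRE: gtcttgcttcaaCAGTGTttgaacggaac
Tfrc IRE 1: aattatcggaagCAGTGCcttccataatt
Tfrc IRE 2: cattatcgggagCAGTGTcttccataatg
Tfrc IRE 3: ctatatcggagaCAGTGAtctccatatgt
Tfrc IRE 4: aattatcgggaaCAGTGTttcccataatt
The search asked, on the sense strand only, for a C, any 5 bases, CAGTG followed by A, C or T, and 5 bases able to pair with the 5 before the loop (G:T pairs allowed). It found the motif in 15 of 15528 annotated 5′ UTRs (0.0966%), Fth1 and Ftl1 among them, and in 71 of 15667 3′ UTRs (0.453%). Tfrc was the single gene whose 3′ UTR held 3 or more matches. A match is a description of the letters, and no binding was measured.

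The antizyme frameshift sites are shown next, with capitals on TCCTGAT, the stretch in which the TGA stop of the starting frame is bypassed. The site lies in coding exons at chr10:80828281-80828310 (plus strand) in Oaz1 and at chr9:65686258-65686287 (plus strand) in Oaz2.
Oaz1 frameshift site: ctcggtggtgcTCCTGATgtccctcaccca
Oaz2 frameshift site: ctctgtggtgcTCCTGATgcccctcaccca
These 7 letters, in any frame and on the sense strand, occur in 14.4% of 16090 annotated coding regions, so the letters alone do not single out the antizymes. Upstream frames that start with ATG and close before the main start codon follow with the ATG in capitals, at chr10:40302155-40302175 (minus strand) for Amd1, chr12:17544921-17544947 (plus strand) for Odc1 and chr15:38514482-38514505 (minus strand) for Azin1, all in 5′ UTRs.
Amd1 upstream frame: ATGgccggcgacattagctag
Odc1 upstream frame: ATGacgacgtgctcggcgtataagtag
Azin1 upstream frame: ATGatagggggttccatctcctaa
The Amd1 frame has 6 codons before its stop, this Odc1 frame 8 and this Azin1 frame 7, and Odc1 and Azin1 hold further such frames. Closed upstream frames are common, being present in 43% of the 15528 annotated 5′ UTRs. Sat1 (4 codons) and Ftl1 (2 codons) each had 1 as well. The search took ATG starts only, and whether any of these frames controls translation was not tested.

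The table held whole-number counts of 3′ tags for 157 libraries. The 156 libraries of fractions 4 to 16 had totals of 14724 to 4170688 counts (median 811932), 6 of them under 50000, and the 12 gradients summed to between 6404957 and 21449781. An additional LPS library, of fraction 17, held 777 counts and none of the 10 mRNAs, which allows a share of up to 0.386% for each. Gradients were identified by library pool (LUL15 to LUL18, 1 gradient of each treatment per pool), and the study describes the replicates as biological. The split of counts over the gradient differed between gradients: monosome libraries supplied 13.7 to 17.6% of a gradient's counts in LPS, 10.8 to 29% in LPS+ET and 28.4 to 34% in LPS+ET+KU. The LPS+ET gradient of pool LUL16, the shallowest, had 30.4% of its counts in heavy polysomes against 60.5 to 68.2% in the other 3 LPS+ET gradients. Since equal RNA concentrations went into the libraries, these splits say nothing of how much mRNA a fraction held, and levels are therefore given both from summed counts and with equal weight per fraction where that matters. Markers fitted the labelled cell type. The summed level of 7 B cell genes was 2852 to 3846 CPM (counts scaled to a common library size) in LPS. It was 1799 to 2429 CPM in LPS+ET and 1990 to 2962 CPM in LPS+ET+KU. The 5 T cell genes in the table summed to at most 4.36 CPM and 1 NK cell gene to at most 1.54. The 7 myeloid genes summed to 33.6 to 94.3 CPM in LPS, 46 to 158 in LPS+ET and 29.1 to 121 in LPS+ET+KU. The part of myeloid cells in the levels below was not tested.

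The genes are given by Ensembl identifier and GRCm38 span. Fth1 is ENSMUSG00000024661 (chr19:9980598-9985098, plus strand), Ftl1 ENSMUSG00000050708 (chr7:45457944-45459884, minus), Tfrc ENSMUSG00000022797 (chr16:32608920-32632794, plus) and Ireb2 ENSMUSG00000032293 (chr9:54863789-54912530, plus). Odc1 is ENSMUSG00000011179 (chr12:17544794-17551505, plus), Oaz1 ENSMUSG00000035242 (chr10:80826656-80829290, plus), Oaz2 ENSMUSG00000040652 (chr9:65668001-65690300, plus) and Azin1 ENSMUSG00000037458 (chr15:38487427-38519266, minus). Amd1 is ENSMUSG00000075232 (chr10:40287458-40302186, minus) and Sat1 ENSMUSG00000025283 (chrX:155213132-155216449, minus).

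The 10 genes differed widely in tag level. Tags were tallied at poly(A) sites and not along the transcript, so the counts were not divided by length. Of the 10 genes 7 were counted at 1 site, Ireb2 at 2, Azin1 at 3 and Amd1 at 4. The levels below are CPM after TMM scaling of the counts summed over fractions 4 to 16. In LPS the order of mean levels was Fth1 (768 CPM), Tfrc (323), Oaz1 (110), Azin1 (101), Oaz2 (74), Ireb2 (50.2), Odc1 (18.8), Ftl1 (4.19), Sat1 (3.01) and Amd1 (0.397). Neighbours in this order did not overlap over the 4 gradients, except Oaz1 with Azin1 and Ftl1 with Sat1, which did. Fth1, the ferritin heavy chain, ranked 191 among all 19600 genes. Ftl1, the light chain, gave only 12 to 290 counts per gradient, and the last 60 bases at its counted site are identical in the annotated copy Ftl1-ps1, which is not in the table. Reads of this pair cannot be told apart there, so the Ftl1 level is uncertain. Amd1 gave 103 counts in all 12 gradients together. Its most used site, with 48 of them, lay in an intron 6008 bases from the nearest annotated transcript end, and 24 lay at a site 1 base from an annotated end. For this reason its values are not read as levels of the mature mRNA. The most used site of the other 9 genes was within 56 bases of an annotated 3′ end, and the further sites of Azin1 and Ireb2 lay in annotated exons.

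**Figure D1:**
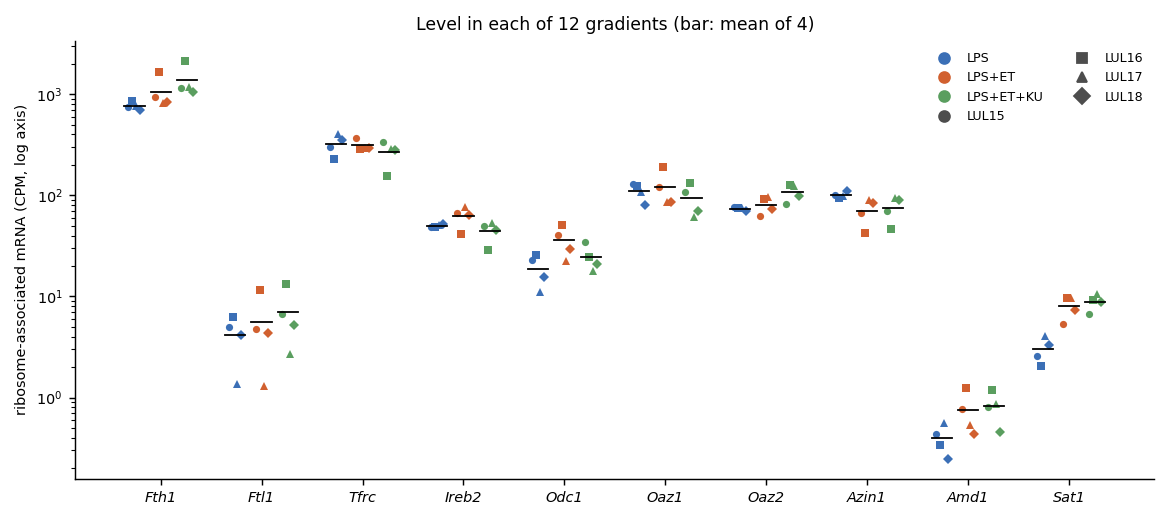
Level of each mRNA in fractions 4 to 16 together (CPM, log axis), 1 point per gradient with the treatment shown by colour and the pool by marker shape, and the bar at the mean of 4 gradients. Sat1 is higher in every etoposide gradient (5.38 to 10.7 CPM) than in every LPS gradient (2.05 to 4.08 CPM), and Azin1 is lower in all of them. With equal weight per fraction, not drawn here, the Azin1 groups overlapped.

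The treatment comparisons ask which mRNAs gain or lose ribosome association after DNA damage, and whether this depends on ATM. Of the 10 mRNAs, Sat1 alone passed the threshold used throughout (adjusted p under 0.01, edgeR quasi-likelihood test with treatment as the only term, Benjamini-Hochberg over all genes tested), and it rose. With the pool as a replicate block 2 passed in LPS+ET against LPS (Odc1 and Sat1) and 3 in LPS+ET+KU against LPS (Fth1, Oaz2 and Sat1), and the gradients of a pool did deviate together. Over all genes the block raised the number called as well, so the backgrounds that follow hold only without it. Without the block 1 of 10 was called in LPS+ET against LPS, where 12.7% of all 12755 genes tested were. For LPS+ET+KU against LPS the count was 1 of 10, with a background of 10.7%. Between LPS+ET+KU and LPS+ET 0 of 10 were called by edgeR and 0 by DESeq2, with a background of 0.455%, and 2 had an unadjusted p under 0.05. Each pair of these comparisons shares the 4 gradients of a treatment. These are changes in mRNA found on the gradient: total RNA was not analysed here, so more mRNA per cell and more of it on ribosomes cannot be told apart, and neither can fewer cells of a type and less RNA per cell.

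Sat1, the catabolic acetyltransferase, had levels of 2.59, 2.05, 4.08 and 3.31 CPM in the LPS gradients of pools LUL15 to LUL18. In LPS+ET they were 5.38, 9.7, 9.7 and 7.29 CPM, and in LPS+ET+KU 6.74, 9.26, 10.7 and 8.92 CPM. Both etoposide groups lay wholly above LPS and overlapped each other. The log2 fold change was 1.43 ± 0.27 (SE) for LPS+ET against LPS, a 2.69-fold rise with an edgeR adjusted p of 0.00196, and 1.59 ± 0.27 for LPS+ET+KU against LPS, a 3-fold rise with an adjusted p of 0.00129. Each was higher in 4 of 4 pools. These values rest on 36 to 204 counts per gradient. With equal weight per fraction the rise in LPS+ET was 1.47 with a limma adjusted p of 0.01075, which missed the threshold, and without the LPS gradient of LUL15 it was 1.35 with an edgeR adjusted p of 0.01003, which missed it as well. The rise in LPS+ET+KU passed in each of these settings.

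Smox, spermine oxidase, belongs to the same catabolic branch and was in the list of other polyamine genes. It rose by 3.39 ± 0.23 on the log2 scale in LPS+ET (edgeR adjusted p = 8.71e-07), from 1.95 ± 0.474 to 20.8 ± 1.82 CPM (SD, n = 4). Under LPS+ET+KU it stood at 24.1 ± 5.38 CPM, a rise of 3.60 ± 0.23 over LPS (edgeR adjusted p = 9.14e-07).

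Odc1, the entry enzyme of polyamine synthesis, had levels of 23, 25.6, 11.1 and 15.6 CPM in LPS (pools LUL15 to LUL18). After etoposide without KU55933 they were 40.4, 50.9, 22.4 and 29.8 CPM, and with it 34.8, 24.5, 18 and 21.1 CPM. In each pool the LPS+ET gradient was higher than the LPS gradient, by a ratio of mean levels of 1.91, although the groups overlapped. The log2 difference was 0.92 ± 0.31 with an edgeR adjusted p of 0.0482. With the pool as a replicate block it was 0.93 with an edgeR adjusted p of 2.48e-04, which passed the threshold. For LPS+ET+KU against LPS+ET the difference was -0.54 ± 0.31 (edgeR adjusted p = 0.425), lower in 4 of 4 pools, and with the block the adjusted p was 0.0327.

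Azin1, the antizyme inhibitor, had levels of 101, 94.3, 97.6 and 111 CPM in LPS. The LPS+ET gradients had 67.4, 42.3, 90.3 and 83.1 CPM, and the LPS+ET+KU gradients had 69.7, 46.8, 94.2 and 90.4 CPM. In these summed counts all 8 etoposide gradients lay below all 4 LPS gradients, and the lowest of each treatment was pool LUL16. The log2 difference was -0.51 ± 0.25 in LPS+ET (edgeR adjusted p = 0.17, and 0.0113 with the block) and -0.42 ± 0.25 in LPS+ET+KU (edgeR adjusted p = 0.243, and 0.0242 with the block), so neither was called. With equal weight per fraction the Azin1 groups overlapped: 73.2 to 87.9 CPM in LPS, 46.5 to 78.4 in LPS+ET and 45 to 85.3 in LPS+ET+KU. The log2 differences to LPS were then -0.41 and -0.25 (limma adjusted p = 0.227 and 0.474). In summed counts, groups did not overlap for 2 of the 10 mRNAs in LPS+ET against LPS (Azin1 and Sat1), beside 27.5% of all genes tested. They did not overlap for 4 in LPS+ET+KU against LPS (Fth1, Oaz2, Azin1 and Sat1), beside 26.4%. Between the etoposide groups 0 of 10 were apart, beside 8.57%. Separate groups were thus common among all genes.

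Oaz2, an antizyme, had levels of 76.5, 75.3, 74.5 and 69.6 CPM in LPS. The corresponding LPS+ET gradients had 62.7, 92.8, 95.6 and 73.7 CPM, and the LPS+ET+KU gradients 82.2, 128, 123 and 97.7 CPM. The LPS+ET+KU gradients all exceeded the LPS gradients, and each exceeded the LPS+ET gradient of its pool. The log2 difference to LPS was 0.54 ± 0.19 with an edgeR adjusted p of 0.0501, and 0.52 with an adjusted p of 0.00856 with the replicate block. Oaz1, the other antizyme, had levels of 131, 123, 107 and 79.4 CPM in LPS, 121, 191, 85.2 and 85.4 CPM in LPS+ET and 109, 134, 61.8 and 70.8 CPM in LPS+ET+KU. All 3 groups of Oaz1 overlapped, and its log2 difference of -0.23 ± 0.30 in LPS+ET+KU against LPS had an edgeR adjusted p of 0.62. Whether the antizymes differed from each other in response was not tested.

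Fth1 had levels of 754, 857, 765 and 696 CPM in LPS. The LPS+ET gradients had 932, 1657, 811 and 838 CPM, and the LPS+ET+KU gradients had 1156, 2149, 1191 and 1055 CPM. In every pool the order was LPS, then LPS+ET, then LPS+ET+KU, and pool LUL16 was the highest of each treatment. The LPS+ET+KU gradients lay above all LPS gradients, with a log2 difference of 0.85 ± 0.27 and an edgeR adjusted p of 0.0396 (0.78 and 0.00147 with the block). Fth1 is most abundant in monosomes, which supplied more of the counts in LPS+ET+KU. With equal weight per fraction its level was 963 ± 103 CPM in LPS, 1337 ± 208 with etoposide and 1504 ± 313 with etoposide and KU55933 (SD, n = 4), and the log2 difference of LPS+ET+KU to LPS was 0.63 with a limma adjusted p of 0.0235.

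Tfrc had levels of 303, 228, 407 and 355 CPM in LPS. After etoposide they were 369, 289, 295 and 296 CPM, and with KU55933 as well 334, 157, 288 and 284 CPM. All groups overlapped. The log2 difference of LPS+ET+KU to LPS was -0.28 ± 0.24 (edgeR adjusted p = 0.42), and its sign turned to 0.21 (limma adjusted p = 0.5405) with equal weight per fraction. The direction of Tfrc thus depended on how fractions were weighted.

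Ireb2, which encodes IRP2, had levels of 48.9, 48.9, 50.4 and 52.4 CPM in LPS. The LPS+ET gradients had 67.6, 41.6, 76.1 and 63.7 CPM, and the LPS+ET+KU gradients had 49.6, 29.1, 53 and 45.3 CPM. The LPS gradients lay close together, whereas pool LUL16 was the lowest of both etoposide groups. In 4 of 4 pools LPS+ET+KU was lower than LPS+ET, a log2 difference of -0.50 ± 0.21 with an edgeR adjusted p of 0.27 (0.039 with the block). Ftl1 ranged from 1.3 to 13.2 CPM over all 12 gradients and was highest in pool LUL16 in each treatment. Its differences of 0.34 ± 0.61 (LPS+ET) and 0.72 ± 0.60 (LPS+ET+KU) to LPS on the log2 scale had edgeR adjusted p of 0.746 and 0.413. Amd1 differed by 0.88 ± 0.49 and 1.09 ± 0.47 (edgeR adjusted p = 0.222 and 0.106) on its few counts.

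**Figure D2:**
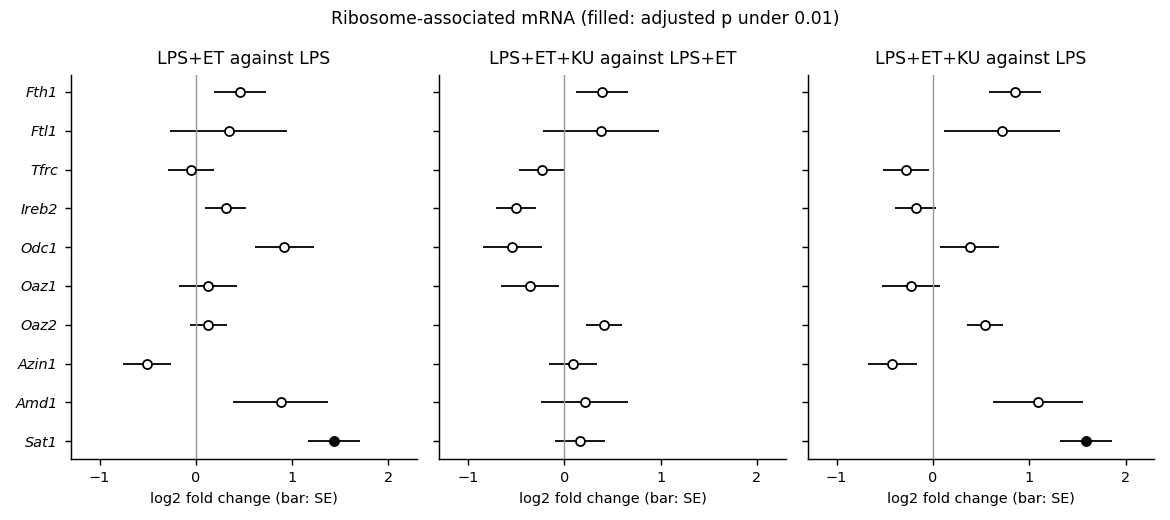
Log2 difference in ribosome-associated mRNA between treatments for the 10 mRNAs (x axis, log2; bar, SE of the edgeR fit; filled points, adjusted p under 0.01). Sat1 has the filled points, at 1.43 for LPS+ET and 1.59 for LPS+ET+KU against LPS, and the comparison of LPS+ET+KU with LPS+ET has none.

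Within single classes of fractions, 8 of the 10 mRNAs could be tested in monosomes (not Amd1 and Sat1) and 9 in light and in heavy polysomes (not Amd1). In monosomes 0 of 8 were called by edgeR in each comparison, with backgrounds of 9.52% for LPS+ET against LPS, 0.213% for LPS+ET+KU against LPS+ET and 5.96% for LPS+ET+KU against LPS. At an unadjusted p under 0.05 there were 4, 1 and 2, and DESeq2 called 1, 0 and 1, in each case Fth1. Backgrounds within single classes are those of edgeR without the block, and none is given for DESeq2 or the block. Fth1 in monosomes was 1240, 1492, 1427 and 1209 CPM in LPS, 1818, 1835, 2092 and 1789 CPM in LPS+ET and 2122, 1879, 2457 and 1843 CPM in LPS+ET+KU. Both etoposide groups lay above LPS, and pool LUL16 was not apart from the others there. The log2 differences to LPS were 0.49 ± 0.16 (edgeR adjusted p = 0.0459) and 0.63 ± 0.16 (edgeR adjusted p = 0.0173), and both passed with the pool as a block. Odc1 in monosomes also stood higher in LPS+ET (1.14 ± 0.33, edgeR adjusted p = 0.0267) without overlap, and passed with the block. Oaz2 in monosomes was higher in all LPS+ET+KU gradients (55.8 to 73.7 CPM) than in all LPS+ET gradients (32.2 to 50.1 CPM), a difference of 0.65 ± 0.20 with an edgeR adjusted p of 0.136 that passed with the block, as did Tfrc in LPS+ET+KU against LPS (-0.50 ± 0.17, edgeR adjusted p = 0.0611). Groups in monosomes did not overlap for 3 of the 8 in LPS+ET against LPS (Fth1, Ireb2 and Odc1; 23.8% of all genes), 1 in LPS+ET+KU against LPS+ET (Oaz2; 7.33%) and 2 in LPS+ET+KU against LPS (Fth1 and Tfrc; 20.2%).

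In light polysomes 0 of 9 were called for LPS+ET against LPS (background 10.6%), 0 for LPS+ET+KU against LPS+ET (0.292%) and 1 for LPS+ET+KU against LPS (7.13%). At an unadjusted p under 0.05 there were 3, 0 and 3, and DESeq2 called 1 (Ireb2), 0 and 1 (Sat1). The called mRNA was Sat1, at 3.11, 4.14, 8.5 and 8.43 CPM in LPS and 13.9, 18, 26.5 and 16.9 CPM in LPS+ET+KU. These groups were apart, and the log2 difference of 1.69 ± 0.39 had an edgeR adjusted p of 0.00895. It ranged from 1.47 to 1.89 when single gradients were left out and missed the threshold without 10 of the 12, passing only without the LPS+ET gradient of LUL15 or of LUL16. Ireb2 in light polysomes was 33.5, 25.5, 31.8 and 30.3 CPM in LPS and 56.4, 39.9, 71.4 and 51.9 CPM in LPS+ET, all higher, with a difference of 0.86 ± 0.22 and an edgeR adjusted p of 0.0115. With the block Ireb2, Odc1 (1.02 ± 0.31 without it, edgeR adjusted p = 0.0305) and Sat1 (1.26 ± 0.39, edgeR adjusted p = 0.0346) were called there. In the same order of comparisons, groups in light polysomes did not overlap for 2 of the 9 (Ireb2 and Odc1), 0 and 1 (Sat1), beside 25.6%, 7.51% and 21.2% of all genes.

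In heavy polysomes 0 of 9 were called by edgeR for LPS+ET against LPS (background 9.69%), LPS+ET+KU against LPS+ET (0.572%) and LPS+ET+KU against LPS (7.95%). At an unadjusted p under 0.05 there were 3, 2 and 3, and DESeq2 called Sat1 in both comparisons with LPS. Sat1 there was 2.09, 0.875, 2.85 and 2.42 CPM in LPS and 3.98, 4.61, 9.92 and 8.92 CPM in LPS+ET+KU, a difference of 1.78 ± 0.43 with an edgeR adjusted p of 0.0105. Oaz2 in heavy polysomes was 43, 44.7, 45.8 and 42.7 CPM in LPS and 54.8, 61.2, 112 and 80.3 CPM in LPS+ET+KU. These Oaz2 groups did not overlap, and the difference of 0.81 ± 0.26 had an edgeR adjusted p of 0.0401. With the pool as a block both Sat1 and Oaz2 passed for LPS+ET+KU against LPS, and Sat1 for LPS+ET against LPS. Heavy polysome levels did not overlap for 1 of the 9 in LPS+ET against LPS (Azin1), 0 between the etoposide groups and 2 in LPS+ET+KU against LPS (Oaz2 and Sat1), beside 24.7%, 8.67% and 25.1% of all genes.

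Position on the gradient differed widely among the 10 mRNAs. Position was taken as the log2 ratio of heavy polysome to monosome counts of an mRNA, relative to the average mRNA of the same gradient, so 0 means placed like the average. The ferritin mRNAs lay towards monosomes in all 3 treatments, and Tfrc and Azin1 towards heavy polysomes in all 3. In LPS 7 of the 9 mRNAs tested were called, 3 of them towards heavy polysomes and 4 towards monosomes, where 46.1% of 11463 genes were called, 25.1% towards heavy polysomes and 21% towards monosomes. In LPS+ET 5 were called (3 heavy, 2 monosome; background 46.1%, 26.8% and 19.2%). The LPS+ET+KU gradients gave 4 calls (2 and 2; background 50.7%, 28.7% and 22%).

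Fth1 had a position of -2.09 ± 0.22 (SE) in LPS, 4.25-fold below the average mRNA, while LPS+ET gave -1.99 ± 0.22 and LPS+ET+KU gave -2.04 ± 0.22 (edgeR adjusted p = 2.76e-09, 6.81e-09 and 6.96e-09). The 10% of genes nearest monosomes in LPS began at -1.84, so Fth1 lay among them. Ftl1 was at -1.38 ± 0.43, -1.76 ± 0.43 and -1.74 ± 0.35 (edgeR adjusted p = 0.00705, 9.89e-04 and 8.32e-05). With the mean CPM per fraction in place of summed counts Ftl1 was at -1.26, -1.21 and -1.54 and missed the threshold in each (limma adjusted p = 0.0947, 0.109 and 0.0442). Tfrc was at 0.86 ± 0.18, 1.39 ± 0.19 and 1.31 ± 0.18 (edgeR adjusted p = 1.83e-04, 2.67e-07 and 4.93e-07). Ireb2 was at 0.95 ± 0.17, 0.66 ± 0.17 and 0.46 ± 0.16, of which the last missed the threshold (edgeR adjusted p = 0.0141). Thus the mRNAs with an IRE ahead of the coding sequence and the mRNA with IREs behind it lay on opposite sides of the average.

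Among the polyamine genes Azin1 was at 1.60 ± 0.17 in LPS, while LPS+ET gave 1.16 ± 0.18 and LPS+ET+KU gave 1.60 ± 0.16. The antizymes it traps were at the other side in LPS, Oaz1 at -1.17 ± 0.23 and Oaz2 at -1.03 ± 0.19 (edgeR adjusted p = 7.28e-05 and 3.21e-05), and nearer to 0 in LPS+ET (-0.55 ± 0.24 and -0.16 ± 0.20) and LPS+ET+KU (-0.60 ± 0.22 and -0.31 ± 0.18), where neither was called. These antizyme values depended on the weighting of fractions: with the mean CPM per fraction they were -0.31 and -0.36 in LPS (limma adjusted p = 0.335 and 0.129). With each fraction scaled to CPM, light polysomes, which this ratio leaves out, held more of each antizyme than monosomes or heavy polysomes did. With fractions 5 to 7 against 12 to 15 both antizymes were called in all 3 treatments. Odc1 (0.14 ± 0.26, -0.12 ± 0.24 and -0.09 ± 0.22) and Sat1 (-0.60 ± 0.48, 0.03 ± 0.39 and 0.16 ± 0.30) were not called anywhere.

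**Figure D3:**
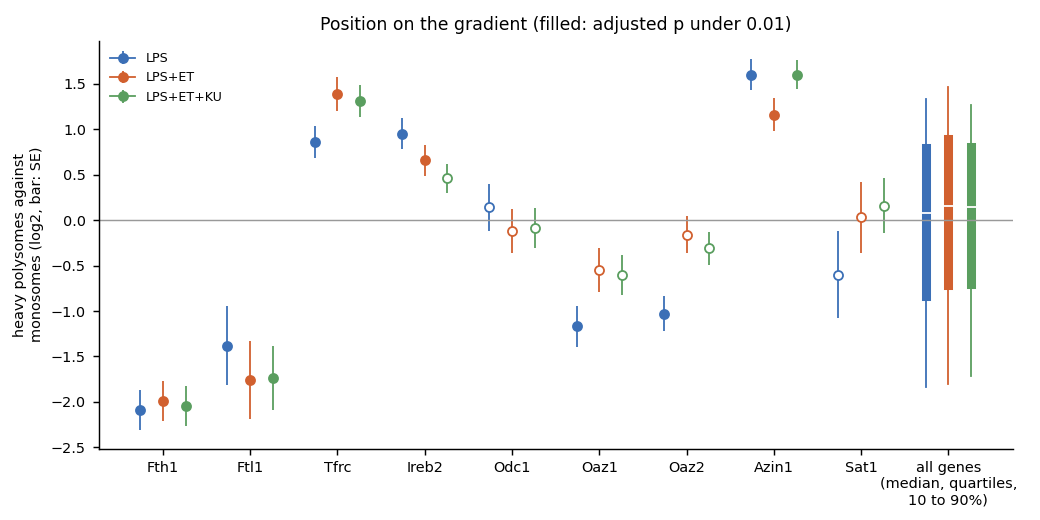
Position of 9 mRNAs in each treatment (y axis, log2 of heavy polysomes over monosomes relative to the average mRNA; bar, SE of the edgeR fit; filled points, adjusted p under 0.01), with the median, quartiles and 10 to 90% range of 11463 genes at the right. Fth1 sits at -2.09 to -1.99, below that range, while Azin1 and Tfrc lie between 0.86 and 1.60 on the side of heavy polysomes.

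A change in position between treatments was called for 0 of 9 by edgeR and 0 by DESeq2 in each comparison, with backgrounds of 2.51% (LPS+ET against LPS), 0.0262% (LPS+ET+KU against LPS+ET) and 2.34% (LPS+ET+KU against LPS). Unadjusted p values under 0.05 numbered 2, 0 and 1. The nearest was Oaz2 in LPS+ET against LPS, towards heavy polysomes by 0.87 ± 0.27 with an edgeR adjusted p of 0.0484, and by 0.73 ± 0.26 in LPS+ET+KU (edgeR adjusted p = 0.0898).

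The share of an mRNA in heavy polysomes, with each fraction scaled to CPM and given equal weight, set apart the same mRNAs in LPS, with Tfrc, Ireb2 and Azin1 highest, Odc1 and Sat1 between, and the antizymes and ferritins lowest, although the order within these sets differed from that by position. It was 75.4 ± 2.54% for Tfrc (SD, n = 4), 70.3 ± 4.3% for Ireb2, 70.3 ± 5.2% for Azin1, 45.3 ± 2.87% for Odc1, 30 ± 8.57% for Sat1, 27.2 ± 2.37% for Oaz2, 26.9 ± 15.6% for Ftl1, 22.6 ± 2.28% for Fth1 and 20.7 ± 0.971% for Oaz1. The gaps from Azin1 to Odc1 and from Odc1 to Sat1 exceeded the spread of single gradients, and the other neighbours overlapped. The median of the 8000 genes with 100 or more counts per gradient was 55.2%. Only 4.69% of them had a lower share than Oaz1, 6.05% than Fth1 and 9.31% than Oaz2, while 83.9% lay below Azin1, 84% below Ireb2 and 92.1% below Tfrc.

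Of the 7 mRNAs with enough counts to test shares, Ireb2 and Tfrc had heavy polysome shares that did not overlap between LPS+ET+KU and LPS, in opposite directions, where 16.2% of 8000 genes did not overlap. In LPS+ET against LPS and between the etoposide groups 0 of the 7 were apart, beside 13.5% and 5.34%. Ireb2 had 64.6, 70.2, 74.8 and 71.8% of its scaled counts in heavy polysomes in LPS, 65.5, 58.4, 59.3 and 63.8% in LPS+ET and 59.2, 51, 62 and 59.5% in LPS+ET+KU. All LPS+ET+KU gradients lay below all LPS gradients, by a mean of 12.4 percentage points. Tfrc had 72.2, 74.8, 77.9 and 76.9% in LPS, 81.2, 71.6, 80.9 and 81.4% in LPS+ET and 85.1, 79.1, 82.5 and 84.7% in LPS+ET+KU. Here all LPS+ET+KU gradients lay above all LPS gradients, by a mean of 7.4 percentage points. On the logit scale the differences were -0.55 ± 0.15 for Ireb2 (limma adjusted p = 0.0522) and 0.46 ± 0.16 for Tfrc (limma adjusted p = 0.11), and neither was called. Of the same 7 mRNAs 0 were called by limma in each comparison, with backgrounds of 0.312% (LPS+ET against LPS), 0% (between the etoposide groups, where 683 of 8000 genes had an unadjusted p under 0.05) and 0.875% (LPS+ET+KU against LPS). Unadjusted p values under 0.05 numbered 1, 0 and 2 among the 7, and no other tool was run on the shares.

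The fraction profiles, fraction by fraction, showed distinct shapes. Fth1 in LPS fell off from the top of the gradient: 24.4 ± 3.68% of its scaled counts were in fraction 4, 11.7% in fraction 5, 9.37% in 6, 10.1% in 7, 8.92% in 8, 7.34% in 9 and 5.48% in 10, and fractions 11 to 16 each held 2.61 to 4.69%. Its mean peaked in fraction 4 in all 3 treatments (LPS+ET, 21.6 ± 9.09%, and LPS+ET+KU, 28 ± 10%). Fth1 was thus most frequent, relative to other mRNA, in the fraction nearest the top of the gradient. The mean of Ftl1 was highest there too, at 24.2 ± 36.6%, 32.4 ± 29% and 32.4 ± 15.1%, but on 8, 25 and 54 counts. In LPS its fraction 4 held 0, 19.4, 77.4 and 0% in pools LUL15 to LUL18, and without LUL17 the mean was 6.46%, below the 16.4% of fraction 5. The Ftl1 peak in LPS therefore rested on 1 gradient.

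Tfrc had the opposite profile. In LPS fractions 4 to 12 each held 2.48 to 4.63% of its scaled counts, fraction 13 held 5.49 ± 2.68%, fraction 14 15.5 ± 5.9%, fraction 15 27.5 ± 6.21% and fraction 16 20.4 ± 4.1%. Fraction 15 held its highest mean in every treatment, with 24.1 ± 11.5% after etoposide and 37.6 ± 9.71% in LPS+ET+KU. In LPS+ET fraction 14 was close, at 22.6 ± 10.5%. Single LPS+ET gradients of Tfrc peaked in fractions 14, 14, 15 and 15 (pools LUL15 to LUL18). Ireb2 was spread over heavy polysomes, with 17.1 ± 4.17% in fraction 12, 14.3 ± 1.06% in 13 and 13.6 ± 2.07% in 14 in LPS, and peaked in fraction 13 in LPS+ET (12.8 ± 2.7%) and LPS+ET+KU (13.6 ± 2.17%). Azin1 resembled it in LPS, with 13.7 ± 3.83% in fraction 12 and 13.2 ± 2.22% in 14, had its peak in fraction 11 in LPS+ET (17.6 ± 2.84%), and divided it between fractions 11 and 15 in LPS+ET+KU (14.2% each).

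The antizymes formed a narrow peak in light polysomes. Oaz1 in LPS had 9.96 ± 3.07% of its scaled counts in fraction 7, 24.9 ± 0.887% in 8, 21.1 ± 2.78% in 9, 15.5 ± 5.97% in 10 and 5.49 ± 1.75% in 11. Oaz2 had 10.4 ± 1.37%, 14.3 ± 2.06%, 20.2 ± 3.86%, 14.2 ± 5.19% and 6.08 ± 1.29% in the same fractions. Light polysomes held 61.4 ± 7.79% of Oaz1 and 48.7 ± 8.06% of Oaz2 in LPS, 61.2 ± 6.79% and 49.2 ± 5.33% in LPS+ET, and 62.9 ± 3.69% and 49 ± 4.98% in LPS+ET+KU. Sat1 also had its peak in light polysomes in LPS (fraction 9, 24.6 ± 10.5%) and LPS+ET+KU (fraction 10, 18.8 ± 6.93%). In LPS+ET its mean peaked in fraction 11, a heavy polysome fraction (18.9 ± 5.91%), and light polysomes held 37 ± 3.44% of it against 40 ± 7.64% in heavy polysomes. Single LPS+ET gradients of Sat1 peaked in fractions 11, 8, 4 and 11 (pools LUL15 to LUL18). The profile test described below did not call Sat1 for LPS+ET against LPS (edgeR adjusted p = 0.564). Odc1 had a broad profile, with peaks of 12.3 ± 3.17% in fraction 8 in LPS, 14.4 ± 3.09% in fraction 10 in LPS+ET and 14.9 ± 2.26% in fraction 10 in LPS+ET+KU. Amd1 is not described by fraction, having 3 to 26 counts per gradient.

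**Figure D4:**
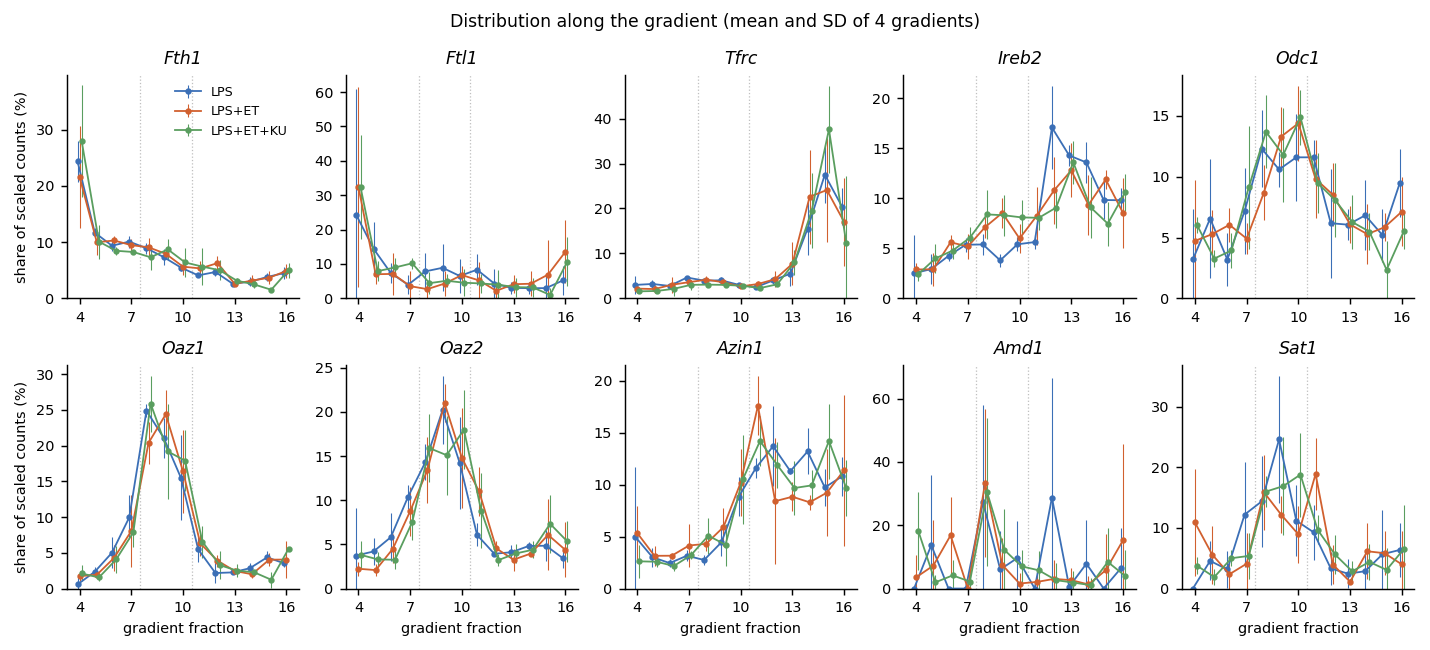
Share of each mRNA's scaled counts (y axis, %) in fractions 4 to 16 (x axis) for the 3 treatments, each line the mean of 4 gradients with SD bars and dotted lines between the classes. Fth1 declines from a peak in fraction 4, the antizymes peak in fractions 8 to 10, and Tfrc rises to fraction 15.

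The profile as a whole was compared between treatments by the interaction of fraction and treatment, with a term for each gradient (all single libraries of 8 gradients, 9 mRNAs tested). Beyond that term the test takes the libraries of a gradient as independent, so its p-values may be too small. For LPS+ET against LPS 0 were called by edgeR (background 5.72%), 3 had an unadjusted p under 0.05, and Ireb2 was nearest with an adjusted p of 0.0134. For LPS+ET+KU against LPS+ET 1 was called, Fth1 with an edgeR adjusted p of 0.00534 (background 3.63%). For LPS+ET+KU against LPS 2 were called, Fth1 with 0.00242 and Ireb2 with 4.24e-04 (background 11%). Fitted with the terms the study used (condition, fraction and their interaction, with no term per gradient, and a test that also takes in differences in level), edgeR called 4 for LPS+ET against LPS (Fth1, Odc1, Sat1 and Ireb2), 0 between the etoposide groups and 3 for LPS+ET+KU against LPS (Fth1, Oaz2 and Sat1). The Fth1 call of LPS+ET+KU against LPS+ET and the Ireb2 call of LPS+ET+KU against LPS were thus lost there. The share of all genes called with the terms of the study is not given, and the backgrounds above belong to the first test only.

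For Fth1 the treatments parted most visibly in fraction 15, which held 3.8 ± 0.639% of its scaled counts in LPS, 3.67 ± 1.2% after etoposide and 1.53 ± 0.352% after KU55933 and etoposide. For Ireb2, fraction 12 held 17.1 ± 4.17%, 10.8 ± 3.38% and 9.08 ± 2.07% in the same order, and fraction 9 held 3.8 ± 0.68%, 8.55 ± 1.48% and 8.31 ± 2.05%. These fractions were chosen after their values were seen. The low fraction 15 in LPS+ET+KU was not particular to Fth1. Its mean was also lowest there for Ftl1, Ireb2, Odc1, Oaz1 (4.37, 4.04 and 1.23%) and Sat1. For Tfrc, Oaz2 and Azin1 it was highest there. The LPS+ET+KU libraries of fraction 15 held 60143 counts in pool LUL15 and 124284 in LUL16. The Fth1 call between the etoposide groups was lost without any 1 of 6 of the 8 gradients and kept without the LPS+ET+KU gradient of LUL16 or of LUL17. For LPS+ET+KU against LPS between 0 and 3 mRNAs were called when single gradients were left out, with 0 without the LPS+ET+KU gradient of LUL15 and 1 without LPS LUL15, LUL17 or LUL18 or LPS+ET+KU LUL16 or LUL18.

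Coding length limits how many ribosomes an mRNA can carry, and the heavy polysome share followed it over all genes (Spearman 0.54, Pearson with log2 length 0.57, 7577 genes). Over the 7 members with 100 or more counts the same coefficients were 0.77 and 0.92. These are descriptions across genes of the same libraries, and genes are not replicates. Fth1 (546 coding bases), Ftl1 (549), Oaz2 (567), Oaz1 (681) and Sat1 (513) are short, and the 765 other genes of 500 to 700 coding bases had a median share of 46% in LPS. Of those 765, 37 had a lower share than Fth1, 23 than Oaz1, 75 than Oaz2, 73 than Ftl1 and 106 than Sat1. Fth1 and the antizyme mRNAs thus lay low also among genes of similar coding length. The place of Ftl1 is uncertain, since its share ranged from 5.47 to 40.9% between single LPS gradients.

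Odc1 (1383 coding bases) and Azin1 (1344), which encode related proteins of nearly the same length, fell on opposite sides of the 596 other genes of 1300 to 1500 bases, whose median was 57.2%. Of these, 133 lay below Odc1 and 520 below Azin1. Tfrc (2289 bases) exceeded 585 of 676 genes of 2000 to 2500 bases (median 62.6%), and Ireb2 (2889 bases) exceeded 277 of 425 genes of 2500 to 3000 bases (median 66.5%).

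**Figure D5:**
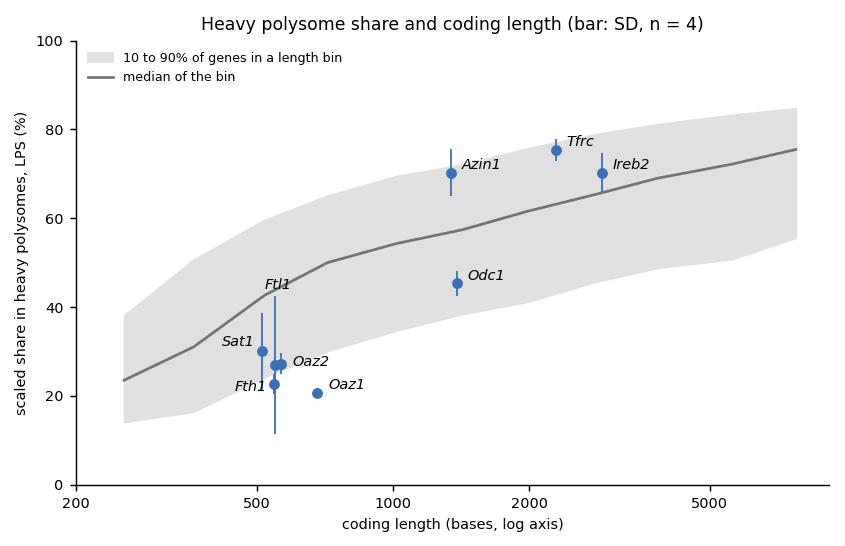
Heavy polysome share in LPS (y axis, %) against coding length (x axis, bases, log axis) for 9 mRNAs, with SD bars over 4 gradients, over the median (line) and the 10 to 90% range (grey) of all genes by length. Oaz1 (20.7%) and Fth1 (22.6%) lie below the grey range of genes of their length, and Azin1 (70.3%) and Tfrc (75.4%) lie above the line.

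Across the 39 means of treatment and fraction, Oaz1 and Oaz2 had the most similar profiles of any pair of the 10 (Pearson r = 0.93), followed by Fth1 and Ftl1 (0.87), and Fth1 and Ireb2 were the most opposed (-0.67). Among genes with 100 or more counts per gradient, the profiles most like Oaz1 were those of Pole4 (0.978), Minos1 (0.974) and Ndufc1 (0.971), and those most like Oaz2 were Snrnp25 (0.978), Gtf2a2 (0.976) and Smdt1 (0.973). Tfrc was most like Ddb1 (0.992), Ganab (0.991) and Bms1 (0.989). Fth1 was most like the mitochondrial ribosomal RNA mt-Rnr2 (0.928), the transcript RP23-81C12.1 (0.918) and mt-Nd5 (0.917), of which the mitochondrial pair are not templates of cytoplasmic ribosomes. Ireb2 was most like Adam10 (0.948), Odc1 like Dexi (0.908), Azin1 like Stard7 (0.897), Sat1 like Dbf4 (0.876) and Ftl1 like Bach2 (0.936). All points come from the same 156 libraries, so these values describe shape only. The coefficients of Ftl1 (0.87 and 0.936) rest on 12 to 290 counts per gradient. Its fraction 4 mean in LPS was 24.2 ± 36.6% (SD, n = 4).

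Of 34 other genes of iron handling 31 were in the table and 28 tested for ribosome-associated mRNA. In LPS+ET against LPS 6 rose and 0 fell (21.4%, beside 12.7% of all genes), with a median log2 difference of 0.25 against 0.03 for all genes. Against LPS, 5 rose and 0 fell in LPS+ET+KU (17.9% beside 10.7%), and 0 were called between the etoposide groups. Hmox1, heme oxygenase, which frees iron from heme, rose from 42.2 ± 8.1 to 155 ± 24.5 CPM in LPS+ET, by 1.88 ± 0.33 on the log2 scale (edgeR adjusted p = 0.00109). Epas1, a hypoxia-inducible factor subunit, rose by 2.03 ± 0.30 in LPS+ET (edgeR adjusted p = 3.25e-04) and 1.73 ± 0.30 in LPS+ET+KU (edgeR adjusted p = 0.00146). Hamp, the gene of the iron hormone hepcidin, rose by 3.32 ± 0.77 (edgeR adjusted p = 0.00561), but from 0.0763 ± 0.118 to only 0.855 ± 0.376 CPM. Beside these, 3 erythroid genes in the table summed to at most 0.0719 CPM in LPS, with Alas2 and Slc4a1 at 0 in all 4 gradients, to 0.858 to 1.22 CPM in LPS+ET and to 0 to 0.805 CPM in LPS+ET+KU, which overlapped LPS. Their part in the iron list was not tested.

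Of 26 other genes of polyamine metabolism and the methionine cycle that feeds it, 23 were in the table and 20 tested. In LPS+ET against LPS 1 rose (Smox) and 1 fell (Mtap) (10% beside 12.7%), with a median log2 difference of -0.47 against 0.03 for all genes. Against LPS, 1 rose and 3 fell in LPS+ET+KU (20% beside 10.7%). The largest fall was that of Mtap, which salvages the methylthioadenosine released in polyamine synthesis, from 260 ± 45.7 to 51.5 ± 5.34 CPM in LPS+ET+KU, a log2 difference of -2.33 ± 0.21 (edgeR adjusted p = 1.20e-05). Between the etoposide groups 0 of the 20 were called.

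By position in LPS, of 25 iron genes tested 7 were called towards heavy polysomes and 7 towards monosomes, and of 19 polyamine genes 11 towards heavy polysomes and 0 towards monosomes, beside 25.1% and 21% of all genes. Whether the lists differed from each other was not tested. The most monosomal were Slc25a37, which carries iron into mitochondria (-2.47 ± 0.24, edgeR adjusted p = 9.33e-10), and Isca2, an iron-sulphur cluster protein (-1.85 ± 0.18, edgeR adjusted p = 4.83e-10). The furthest towards heavy polysomes were Slc7a1, an arginine transporter (2.20 ± 0.20, edgeR adjusted p = 2.37e-10), and Steap3, a ferrireductase (1.89 ± 0.50, edgeR adjusted p = 0.0017).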

How the data were processed

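The deposited table holds counts of 3′ tags per gene. Per the labels and methods, the authors made libraries with barcoded primers, removed PCR duplicates, trimmed A tracts, aligned reads to GRCm38 and tallied them at poly(A) sites of Ensembl genes. The submitters' processing notes name TopHat2 2.0.12, HTSeq and DESeq2 1.6.3, and equal RNA concentrations entered the libraries. The 10 members and the gene lists were chosen with earlier results of these data known. Of 157 columns 79 matched 1 sample, and 78 matched a treatment and fraction without showing which sample.

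The counts of each gradient were summed over fractions 4 to 16, and over each class, for edgeR 4.0.16 (R 4.3.3; TMM, low counts filtered, quasi-likelihood test, Benjamini-Hochberg, called at an adjusted p under 0.01), with treatment as the only term. Position used heavy and monosome sums with a term per gradient, and profiles used single libraries. Heavy polysome shares (each fraction scaled to CPM, 0.5 counts added, genes with 100 or more counts per gradient) were tested on the logit scale by limma 3.58.1. DESeq2 1.42.0, equal weight per fraction, other filters and single gradients left out were alternatives. Gradients of a pool deviated together (r = 0.353 to 0.894 in 12 of 12 pairs, against -0.672 to 0.402 between pools), so values with the pool as a block are given where they change a call. The named genes were all members, and from the lists those with the largest called differences. The tests were also run on counts simulated without a pool effect, so that check does not cover gradients that deviate together. The 156 libraries held 14724 to 4170688 counts, and intervals and limits from counts cover counting error only. Sequences came from GENCODE M21 transcripts. Fraction 17 entered no comparison.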

Additional observations from a re-analysis of the deposited data

Results flagged for a closer look

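In 5 of 60 groups of 4 gradients (levels and heavy polysome shares of the 10 mRNAs in 3 treatments) a single gradient stood far from the others, where chance gives about 1 in 20. Fth1 in LPS+ET was 1657 CPM in pool LUL16 against 811 to 932 CPM in the other 3 gradients. Fth1 in LPS+ET+KU was 2149 CPM in LUL16 against 1055 to 1191 CPM. Tfrc in LPS+ET was 369 CPM in LUL15 against 289 to 296 CPM. The heavy polysome share of Tfrc in LPS+ET was 71.6% in LUL16 against 80.9 to 81.4%, and that of Odc1 was 34.1% in LUL16 against 44.7 to 46.2%. The LPS+ET gradient of LUL16 was the shallowest and had 30.4% of its counts in heavy polysomes, against 60.5 to 68.2% in the other 3, and its part in these values was not tested.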

How the results depend on the processing

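Of 1014 values of single members under alternatives, 949 kept their direction and side of the threshold, 24 lost and 13 gained a call, and 28 changed sign, none of them a called value. With the pool as a replicate block the members called were 2 for ribosome-associated mRNA in LPS+ET against LPS and 3 in LPS+ET+KU against LPS, 2, 1 and 2 in monosomes (LPS+ET against LPS, LPS+ET+KU against LPS+ET, LPS+ET+KU against LPS), 3 in light polysomes in LPS+ET against LPS, and 1 and 2 in heavy polysomes against LPS; the block changed no other count. DESeq2 called 1 in each comparison with LPS in monosomes and in heavy polysomes, and 1 in light polysomes for LPS+ET. Equal weight per fraction gave 0 for LPS+ET against LPS, and an adjusted p under 0.05 gave 2 for each treatment against LPS. Position in LPS gave 4 with mean CPM per fraction, and profiles with the terms of the study gave 4 (LPS+ET against LPS) and 0 (between etoposide groups). Leaving out single gradients gave 0 to 1 for ribosome-associated mRNA in LPS+ET against LPS, for light and heavy polysomes against LPS and for the profile between etoposide groups, 6 to 7, 3 to 5 and 4 to 5 for position in LPS, LPS+ET and LPS+ET+KU, and 0 to 3 for the profile of LPS+ET+KU against LPS. Over all genes (12755 tested in the main fit), the 1618, 58 and 1361 calls for ribosome-associated mRNA became 3403, 811 and 3589 with the block. They became 2344, 413 and 2319 with DESeq2, and 1142, 9 and 957 with equal weight, and 0 between etoposide groups when only their 8 gradients were fitted. Shares over all genes are not given for the block or DESeq2 within single classes, nor for profiles with the terms of the study.

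Signs that turned, all on uncalled values, were as follows. In LPS+ET against LPS, Oaz1 ranged from -0.19 (without LPS+ET LUL16) to 0.26 when single gradients were left out and was -0.01 without LPS LUL18, Ftl1 ranged from -0.30 (without LPS+ET LUL16) to 0.68, and Tfrc 0.10 with equal weight and 0.07 without LPS LUL17. In LPS+ET+KU against LPS+ET, Amd1 ranged from -0.01 (without LPS+ET+KU LUL16) to 0.51, Ftl1 from -0.14 (the same) to 1.02 and Azin1 from -0.09 to 0.27, with -0.09, -0.04 and -0.01 without LPS+ET LUL16, LPS+ET+KU LUL17 and LPS+ET+KU LUL18, and Tfrc 0.11 with equal weight. In LPS+ET+KU against LPS, equal weight gave Oaz1 0.02, Ireb2 0.07 and Tfrc 0.21. For position in LPS, Odc1 was -0.15 with fractions 5 to 7 against 12 to 15 and Sat1 0.08 with mean CPM. In LPS+ET mean CPM gave Oaz1 0.00, Odc1 0.42 and Oaz2 0.35, and Sat1 was -0.14 (DESeq2), -0.86 (fractions 5 to 7 against 12 to 15) and -0.10, -0.07 and -0.11 without LUL15, LUL17 and LUL18, up to 0.29 without LUL16. In LPS+ET+KU Odc1 was 0.16 (mean CPM) and -0.26 to 0.28 when single gradients were left out (0.28 without LUL16), Oaz2 0.30 (mean CPM) and Sat1 -0.44 (fractions 5 to 7 against 12 to 15). The cause was not tested. Leaving out libraries under 50000 counts, an alternative chosen after seeing the data, changed no call. Depth limits Amd1, Ftl1 and Sat1 most.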

Other observations

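The gradients of pool LUL16 had the highest Fth1 and Ftl1 levels and the lowest Tfrc and Azin1 levels of each treatment, in places by little (Azin1 in LPS, 94.3 against 97.6 CPM, and Tfrc in LPS+ET, 289 against 295 CPM). For Fth1 they were 857, 1657 and 2149 CPM in LPS, LPS+ET and LPS+ET+KU, and for Tfrc 228, 289 and 157 CPM. With equal weight per fraction Tfrc was still lowest there (289, 297 and 281 CPM), and Fth1 was highest in LPS+ET (1649 CPM) and LPS+ET+KU (1955 CPM) but not in LPS (977 CPM, against 1078 in LUL15). The share of counts in heavy polysomes was the lowest of each treatment in this pool (52.3, 30.4 and 37.6%), and its part in these levels was not tested.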
